A study of Mus musculus with 9 samples.

Results

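Interleukin 6, interleukin 11, leukemia inhibitory factor and oncostatin M form a family of cytokines that signal through a common receptor chain, which the gene Il6st encodes. Each binds a partner chain: Il6ra encodes the one for interleukin 6, Osmr the one for oncostatin M and Lifr the one for leukemia inhibitory factor. The assembled receptor activates JAK kinases, which phosphorylate the transcription factor STAT3, and STAT3 in turn induces Socs3, whose product shuts the receptor down again. In skin, oncostatin M is known as a product of infiltrating leukocytes that acts on keratinocytes, and Osmr also pairs with the product of Il31ra to form the receptor for the itch cytokine interleukin 31.

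The 10 genes described here are these 4 cytokine genes, the 4 receptor chain genes, Stat3 and Socs3, out of 30142 genes measured in neck skin. A gene was taken from array features that the platform annotation gives exactly 1 gene symbol, and where several features carried the same symbol, from the brightest over the 9 arrays. All 10 genes had 1 such feature, so no choice between features was needed. The values are log2 expression, and differences are given on that scale with ± for the standard error of a difference between groups of n = 3 arrays.

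The study compared 3 groups of 3 arrays, each array from skin of male C57BL/6 mice aged 6 to 8 weeks. The labels call the replicates biological and do not say whether an array is 1 mouse or a pool. Oxazolone skin came from mice sensitised with 2.0% oxazolone, a synthetic hapten, on the shaved abdomen, and painted on the nape from 5 days later with 0.5% oxazolone in 40 µl acetone, 5 times in all. Urushiol skin came from mice treated in the same way, at the same strengths, with urushiol, the oil that makes poison ivy allergenic. Control skin was described as healthy, and no source used here says whether those mice were shaved or painted with acetone. Skin of challenged mice was taken 4 hours after the last challenge, on day 8 of the challenges. The comparisons ask how each allergen changed skin against control, and whether the responses to both allergens differed, with the immune response and itch as the study's stated theme.

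The lists of basal keratinocyte, suprabasal keratinocyte, fibroblast and endothelial markers had no member below the array median on every array. The same held for the skeletal muscle, adipocyte, hair follicle, macrophage and T cell lists, so this criterion does not single out skin. Control array 3 lay far from both other controls, with a mean of 13.2 over 9 hair follicle markers, against 6.00 and 6.22 on control arrays 1 and 2. Skeletal muscle markers averaged 7.20 to 9.10 on oxazolone arrays, 11.1 to 12.2 on urushiol arrays and 15.7 to 17.8 on control arrays. In whole skin, fewer cells of a type and less RNA per cell cannot be told apart. The number of arrays limits the precision, and the median standard error over all genes was 0.113 in each comparison.

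**Figure D1:**
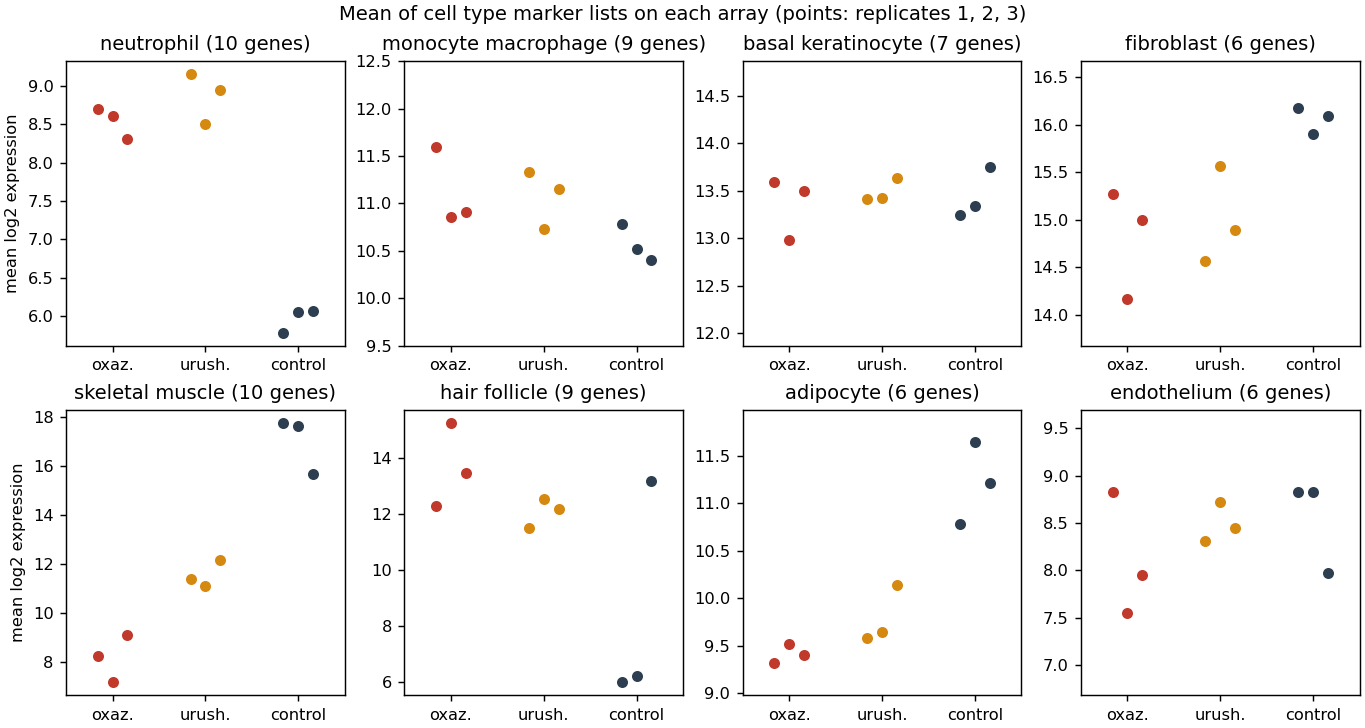
Mean log2 expression (vertical axis) of 8 cell type marker lists on each array, grouped by skin (horizontal axis), with points for replicates 1, 2 and 3. Neutrophil lists stand at 8.31 to 9.15 on challenged arrays and 5.78 to 6.06 on control arrays, muscle lists run the other way, and control array 3 stands with the challenged arrays in the hair follicle list. Within the neutrophil list S100a8 and S100a9 rose most, and RNA of whole skin does not show which cells expressed them.

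The promoters of Il6 and Socs3 are shown because these genes sit at the start and at the feedback end of the pathway and because both were higher in oxazolone skin. The sequences are the 250 bases before the start site that RefSeq gives on assembly GRCm38.p6, at chr5:30012864-30013113 on the plus strand and chr11:117969367-117969616 on the minus strand, read 5′ to 3′ along the gene. The Il6 window ends where the gene's span begins. The Socs3 window lies inside the span that RefSeq gives the gene, chr11:117966079-117970336. It is thus upstream of the start site used, and not of the whole gene. Capitals mark matches to AP-1 (TGACTCA), C/EBP (TTGNGCAA) and NF-kB (GGG, any 2 bases, TTTCC) in Il6 and to the STAT motif TTCNNNGAA in Socs3, searched on both strands, and no marked matches overlap.
Il6: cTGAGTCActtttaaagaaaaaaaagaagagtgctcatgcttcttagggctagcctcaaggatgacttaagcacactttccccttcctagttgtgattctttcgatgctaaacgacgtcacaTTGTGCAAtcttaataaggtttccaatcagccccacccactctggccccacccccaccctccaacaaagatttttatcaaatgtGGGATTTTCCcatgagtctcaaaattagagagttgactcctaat
Socs3: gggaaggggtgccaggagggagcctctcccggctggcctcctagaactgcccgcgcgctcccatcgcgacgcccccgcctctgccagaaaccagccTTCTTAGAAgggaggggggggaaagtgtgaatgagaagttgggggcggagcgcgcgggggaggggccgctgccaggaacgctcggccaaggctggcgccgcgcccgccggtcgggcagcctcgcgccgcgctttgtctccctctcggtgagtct

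In Il6, the AP-1 match began 249 bases before the start site, the C/EBP match 128 and the NF-kB match 44. The STAT match in Socs3 began 154 bases before it. RefSeq promoter windows were matched for 9 of the 10 genes, all but Osm, with 11 windows of 300 bases in all, since Il11 and Lifr have more than 1. Beside that of Socs3, windows of Osmr and Lifr lay inside the spans of their genes, and those of Il11 and Stat3 at least partly. The STAT motif was in the window of 1 of the 9 genes, Socs3, and in 8.3% of all 32851 windows, and its stricter form TTCCNGGAA was in none of the 9 and in 1.15% of all. AP-1 was in those of Il6, Il11 and Lif, and in 5.2% of all windows. NF-kB and C/EBP, which were added after the Il6 sequence had been read, were each in the window of Il6 alone among the 9 genes, and in 1.63% and 2.94% of all windows. A match describes the letters and is not evidence of binding.

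Against control, Il6 and Osm were higher and Il6ra lower in both challenged groups, and Osmr, Stat3 and Socs3 were higher in oxazolone skin. Of the 10 genes 5 rose and 1 fell in oxazolone skin and 4 did not pass, where 16.6% of all genes were called by the same test, 9.63% higher and 6.92% lower. In urushiol skin 2 rose, 2 fell and 6 did not pass, where 16.4% of all genes were called, 9.96% higher and 6.43% lower. Oxazolone and control arrays were fully separated for 7 of the 10 genes, 5 higher and 2 lower, beside 32.8% of all genes, 21.3% higher and 11.5% lower. Urushiol and control arrays were fully separated for 7 as well, 4 higher and 3 lower, beside 32.9% of all genes, 21.1% higher and 11.8% lower. The median difference of the 10 genes was 0.48 in oxazolone skin and 0.19 in urushiol skin, beside 0.06 and 0.04 over all genes. Both comparisons use the same control arrays. The number of all genes called rested on single arrays: 4989 in oxazolone skin and 4942 in urushiol skin, it was 2107 and 2328 without control array 1, 2127 and 2217 without control array 2 and 8019 and 7655 without control array 3. Il6 ranked 258th of 30142 genes by size of difference in oxazolone skin and 444th in urushiol skin, and 2.7% and 2.59% of genes differed by at least as much as Osm.

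**Figure D2:**
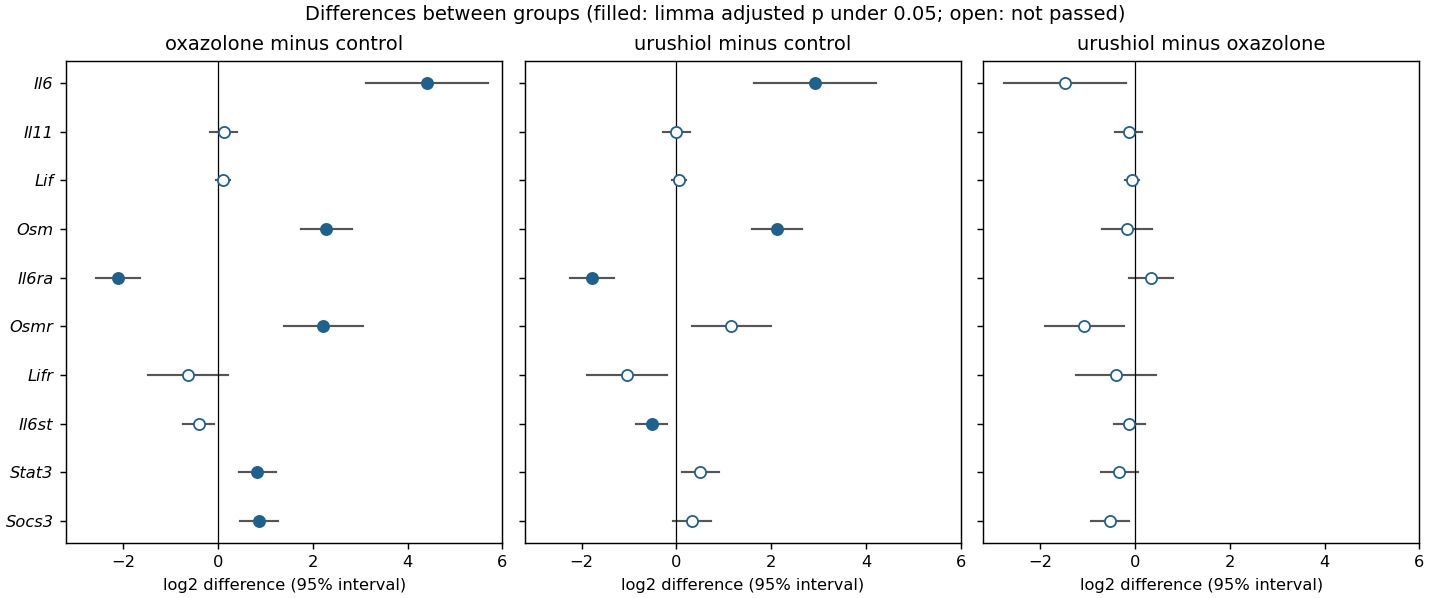
Log2 differences between groups (horizontal axis) with 95% intervals for the 10 genes (vertical axis) in oxazolone minus control, urushiol minus control and urushiol minus oxazolone, filled where the limma adjusted p was under 0.05. Filled points are Il6, Osm, Il6ra, Osmr, Stat3 and Socs3 in the left panel and Il6, Osm, Il6ra and Il6st in the middle panel, and the right panel has none.

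Among the cytokine genes, Il6 and Osm were far higher in challenged skin, and Lif and Il11 did not pass. Il6, which encodes an inducer of fever and the acute phase response, read 8.10, 10.21 and 9.17 on oxazolone arrays 1 to 3, 8.39, 7.48 and 7.19 on urushiol arrays and 4.56, 4.58 and 5.13 on control arrays. All 6 challenged arrays lay above all controls, and oxazolone array 2 was the highest of all. The controls lay below the median of all features of their array, so Il6 was dim in control skin. Il6 rose by 4.40 ± 0.55 in oxazolone skin (limma, adjusted p = 0.00399), a 21.2-fold difference if the scale is read as log2 of RNA amount, and by 2.93 ± 0.55 in urushiol skin (adjusted p = 0.015). The rise in urushiol skin missed the threshold without control array 1 (adjusted p = 0.0555), control array 2 (0.0569) or urushiol array 1 (0.0541).

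Osm, the oncostatin M gene, read 8.24, 8.06 and 7.64 on oxazolone arrays, 8.12, 7.67 and 7.64 on urushiol arrays and 6.06, 5.51 and 5.50 on control arrays. Both challenged groups covered the same range, above all controls, and control arrays 2 and 3 lay below their array medians. Osm rose by 2.29 ± 0.23 in oxazolone skin (limma, adjusted p = 0.00186) and by 2.12 ± 0.23 in urushiol skin (adjusted p = 0.00228), and the calls held without any 1 of the 9 arrays. Neutrophils are a known source of oncostatin M, and 5 of 10 neutrophil markers rose in each challenged group, namely S100a8, S100a9, Retnlg, Cxcr2 and Csf3r. Over all genes 9.63% were called higher in oxazolone skin and 9.96% in urushiol skin. S100a8 and S100a9 rose most, and so weigh heavily in the mean of the list, and RNA of whole skin does not show which cells expressed them. They averaged 6.64 and 7.06 in control skin, 15.4 and 15.3 in oxazolone skin and 17.2 and 17.0 in urushiol skin. Ly6g, a defining neutrophil marker, stood at 0.27 in oxazolone skin and 0.10 in urushiol skin against control and did not pass (adjusted p = 0.105 and 0.563), and Mpo, Elane and Ngp lay below the array median on every array. The list mean was 8.31 to 8.69 on oxazolone arrays, 8.51 to 9.15 on urushiol arrays and 5.78 to 6.06 on control arrays. Of 7 mast cell markers 2 rose in oxazolone skin and 3 in urushiol skin, and of 9 monocyte and macrophage markers 1 and 2. Of 5 T cell markers 1 rose and 1 fell in oxazolone skin, and 1 rose and 2 fell in urushiol skin. The part of these lists in the rise of Osm was not tested.

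Lif, the gene of leukemia inhibitory factor, is the immediate neighbour of Osm on its chromosome in the RefSeq gene table, yet showed no comparable difference. It read 5.74, 5.92 and 5.74 on oxazolone arrays, 5.74 on each urushiol array and 5.74, 5.59 and 5.74 on control arrays. Il11 read 5.38, 4.94 and 4.88 on oxazolone arrays, 4.93, 4.94 and 4.94 on urushiol arrays and 4.94 on each control array. Lif had the same value on 7 of the 9 arrays and Il11 on 6, and 11.1% of all genes had 6 or more identical values. Against control, Lif stood at 0.11 ± 0.06 in oxazolone skin and 0.05 ± 0.06 in urushiol skin, and Il11 at 0.13 ± 0.12 and -0.0033 ± 0.12 (limma, adjusted p = 0.277, 0.661, 0.5 and 1). The 95% intervals ran up to 0.26 and 0.20 for Lif and up to 0.41 and 0.28 for Il11. Il11 lay below the array median on all 9 arrays, and Lif lay close above it, with array medians of 5.53 to 5.64.

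**Figure D3:**
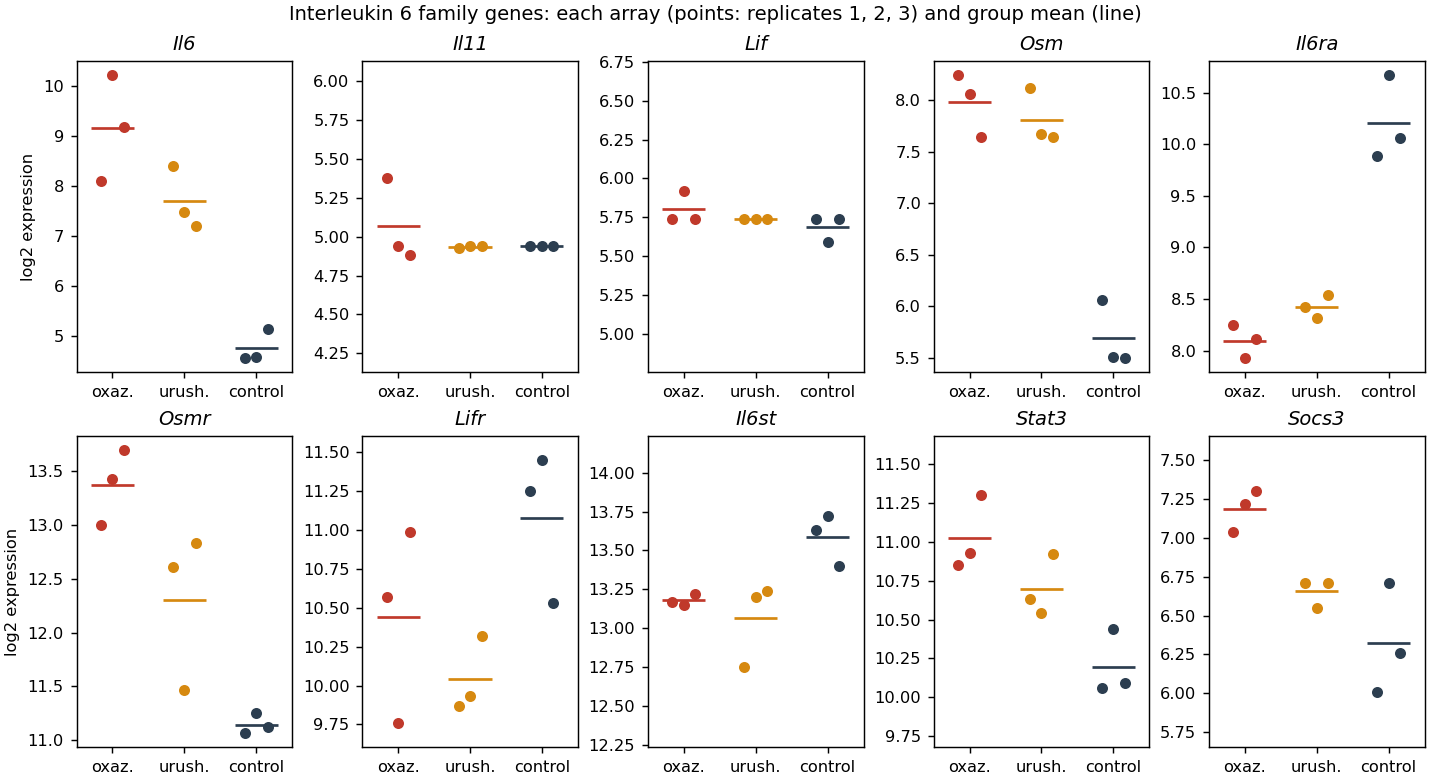
Log2 expression (vertical axis, scaled for each gene) of the 10 genes in oxazolone, urushiol and control skin, with a point for each array (replicates 1, 2 and 3) and a line at the group mean. Il6, Osm, Osmr and Stat3 lie above control on every challenged array, Il6ra and Il6st below it, and Il11 and Lif repeat 1 value on most arrays.

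The receptor chain genes moved in opposite directions. Il6ra, which encodes the chain that binds interleukin 6, read 8.25, 7.93 and 8.11 on oxazolone arrays, 8.42, 8.32 and 8.54 on urushiol arrays and 9.89, 10.67 and 10.06 on control arrays. No challenged array came near the lowest control. Il6ra fell by 2.11 ± 0.20 in oxazolone skin (limma, adjusted p = 0.00157) and by 1.78 ± 0.20 in urushiol skin (adjusted p = 0.00265), and both calls held without any 1 array. The cytokine gene Il6 and its receptor gene Il6ra differed from control in opposite directions on all 6 challenged arrays.

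Osmr, the oncostatin M receptor gene, read 13.00, 13.42 and 13.69 on oxazolone arrays, 12.61, 11.47 and 12.83 on urushiol arrays and 11.07, 11.25 and 11.12 on control arrays. Every challenged array lay above every control, but urushiol array 2 exceeded the highest control only narrowly. Osmr rose by 2.22 ± 0.35 in oxazolone skin (limma, adjusted p = 0.00911). In urushiol skin it stood at 1.16 ± 0.35 and did not pass (95% interval 0.33 to 1.99, adjusted p = 0.0666), and without urushiol array 2 it stood at 1.57 and passed (adjusted p = 0.00971). Il31ra, which encodes the other chain of the interleukin 31 receptor, went the other way: it read 6.45, 6.96 and 6.81 on oxazolone arrays, 6.33, 6.19 and 6.36 on urushiol arrays and 8.30, 9.12 and 8.12 on control arrays.

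Lifr, the receptor gene for leukemia inhibitory factor, read 10.57, 9.76 and 10.99 on oxazolone arrays, 9.87, 9.93 and 10.32 on urushiol arrays and 11.25, 11.45 and 10.53 on control arrays. Control array 3 was the lowest control and lay below 2 oxazolone arrays. Lifr stood at -0.64 ± 0.36 in oxazolone skin and -1.04 ± 0.36 in urushiol skin and did not pass (limma, adjusted p = 0.256 and 0.0935). Without control array 3 the difference in urushiol skin was -1.31 and passed (adjusted p = 0.0402).

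Il6st, the gene of the common receptor chain of the cytokines named at the start, read 13.17, 13.15 and 13.22 on oxazolone arrays, 12.75, 13.20 and 13.24 on urushiol arrays and 13.63, 13.72 and 13.40 on control arrays. All 6 challenged arrays lay below all controls, by a small distance. Il6st fell by 0.52 ± 0.14 in urushiol skin (limma, adjusted p = 0.0471), and stood at -0.40 ± 0.14 in oxazolone skin without passing (adjusted p = 0.0923). The call in urushiol skin is marginal: it was lost without any 1 of 8 arrays, the exception being control array 3, at adjusted p up to 0.149, and with the replicate number as a block (adjusted p = 0.0709). In oxazolone skin Il6st passed without urushiol array 1 (adjusted p = 0.0316).

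Markers of some resident tissues fell beside Il6ra, and others did not. All 10 skeletal muscle markers fell in each challenged group, 5 of 6 adipocyte markers fell in oxazolone skin and 4 in urushiol skin, and 4 and 3 of 6 fibroblast markers. The adipocyte list mean was 9.31 to 9.52 on oxazolone arrays, 9.58 to 10.1 on urushiol arrays and 10.8 to 11.7 on control arrays. Of 7 suprabasal keratinocyte markers 2 rose and 1 fell in oxazolone skin, and 5 rose and 1 fell in urushiol skin. Of 7 basal keratinocyte markers 2, Krt14 and Itga6, rose and 1, Krt15, fell in each. Of 6 endothelial markers 1 fell in oxazolone skin and 0 in urushiol skin by limma, and 0 of 9 hair follicle markers passed in either, with median differences of 5.27 and 3.60. Over all genes 16.6% were called in oxazolone skin and 16.4% in urushiol skin, with 6.92% and 6.43% called lower. The endothelial count in oxazolone skin, 16.7% of the list, is near the 16.6% of all genes. The part of these markers in the fall of Il6ra, and in that of Il6st in urushiol skin, was not tested.

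Downstream of the receptors, Stat3 and Socs3 rose in oxazolone skin, by less than the cytokine genes. Stat3 read 10.85, 10.93 and 11.30 on oxazolone arrays, 10.63, 10.54 and 10.92 on urushiol arrays and 10.06, 10.44 and 10.09 on control arrays. The groups form steps with no overlap between either challenged group and control, and oxazolone and urushiol arrays overlap. Stat3 rose by 0.83 ± 0.16 in oxazolone skin (limma, adjusted p = 0.0188) and stood at 0.50 ± 0.16 in urushiol skin without passing (95% interval 0.11 to 0.89, adjusted p = 0.0827). The call in oxazolone skin was lost without control array 1 (adjusted p = 0.0679) or oxazolone array 3 (0.0509).

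Socs3, the feedback inhibitor gene, read 7.04, 7.22 and 7.30 on oxazolone arrays, 6.71, 6.55 and 6.71 on urushiol arrays and 6.01, 6.71 and 6.26 on control arrays. Oxazolone arrays lay above all others, whereas control array 2 matched the highest urushiol arrays. Socs3 rose by 0.86 ± 0.17 in oxazolone skin (limma, adjusted p = 0.0187), and stood at 0.33 ± 0.17 in urushiol skin without passing (adjusted p = 0.235). The call in oxazolone skin was lost without oxazolone array 2 (adjusted p = 0.0583) or 3 (0.0645). Without control array 2, Socs3 stood at 0.52 in urushiol skin and passed (adjusted p = 0.0466). On that array the immediate early genes Fos and Zfp36, chosen after their values were seen, read 13.76 and 10.26, against 9.34 and 7.36 on control array 1 and 11.02 and 8.51 on control array 3, and their part in the Socs3 value was not tested.

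No gene of the family passed the test between the allergens, where 0.0166% of all genes did, 5 of 30142 (0.00664% higher and 0.00995% lower with urushiol). An unadjusted p under 0.05 was found for 3 of the 10 genes, and for 1772 of all genes. Each of these 3 was lower with urushiol. Il6 stood at -1.47 ± 0.55 in urushiol against oxazolone skin, with a 95% interval of -2.76 to -0.18 (limma, adjusted p = 0.778), and urushiol array 1 lay above oxazolone array 1. Osmr stood at -1.07 ± 0.35 (-1.90 to -0.24, adjusted p = 0.675) and Socs3 at -0.53 ± 0.17 (-0.93 to -0.13, adjusted p = 0.648).

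For Osmr and Socs3 all urushiol arrays lay below all oxazolone arrays, and for Il6ra all lay above, at 0.33 ± 0.20. That is 3 of 10 genes with arrays that do not overlap, beside 9.74% of all genes, 5.35% higher and 4.39% lower. The remaining differences ran from -0.40 for Lifr to -0.06 for Lif, with Osm at -0.17 ± 0.23 and an interval of -0.70 to 0.36. The intervals of Il6, Osmr, Lifr and Osm each span more than a log2 unit. In order of level, oxazolone, urushiol and control skin followed each other downwards for Il6, Osm, Osmr, Stat3 and Socs3. The nearly flat Lif had the same order, with means of 5.80, 5.74 and 5.69. The step between oxazolone and urushiol skin passed the test in none of these genes.

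Among other genes of the family, 1 rose and 1 fell of 9 measured members in each challenged group, and 7 did not pass, so 22.2% of the list was called, near the 16.6% and 16.4% of all genes. Clcf1, the gene of a related cytokine, rose by 1.77 ± 0.17 in oxazolone skin and 1.49 ± 0.17 in urushiol skin (limma, adjusted p = 0.00183 and 0.00319). It read 8.43, 8.71 and 8.24 on oxazolone arrays, 8.14, 8.17 and 8.21 on urushiol arrays and 6.88, 6.32 and 6.86 on control arrays. Il31ra fell by 1.77 ± 0.26 and 2.22 ± 0.26 (adjusted p = 0.007 and 0.00323). The genes that did not pass were Ctf1, Ctf2, Il27, Ebi3, Cntfr, Il27ra and Il12rb1, and the list's median difference was 0.05 in oxazolone skin and 0.02 in urushiol skin.

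Kinases, STAT factors and their regulators moved both ways. In oxazolone skin 8 of 25 rose and 5 fell, and in urushiol skin 6 rose and the same 5 fell, with medians of 0.02 and 0.03. That is 52% and 44% of the list, beside 16.6% and 16.4% of all genes. Jak2, which encodes a kinase that these receptors use, rose by 2.14 ± 0.20 in oxazolone skin and 1.06 ± 0.20 in urushiol skin (limma, adjusted p = 0.00155 and 0.0149). Other kinase genes of the list did not rise. Jak1 stood at -0.24 ± 0.19 and 0.03 ± 0.19 and did not pass (limma, adjusted p = 0.42 and 0.965). Tyk2 fell by 0.34 ± 0.09 and 0.39 ± 0.09 (limma, adjusted p = 0.0485 and 0.0335). Adam10, a protease gene whose product can cut the interleukin 6 receptor from the cell surface, rose by 1.53 ± 0.18 and 1.39 ± 0.18 (adjusted p = 0.00323 and 0.00439). Its relative Adam17, in the same list, stood at 0.02 ± 0.13 and 0.28 ± 0.13 and did not pass (limma, adjusted p = 0.926 and 0.193). Stat2, a factor of the interferon response, read 10.93, 10.46 and 12.51 on oxazolone arrays, 7.61, 8.07 and 7.95 on urushiol arrays and 8.19, 8.50 and 8.53 on control arrays. It rose by 2.89 ± 0.48 in oxazolone skin (adjusted p = 0.0108) and stood at -0.53 ± 0.48 in urushiol skin (adjusted p = 0.51).

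Stat4, known for relaying interleukin 12 signals in lymphocytes, rose by 1.62 ± 0.07 in oxazolone skin and 0.84 ± 0.07 in urushiol skin (limma, adjusted p = 0.000154 and 0.000836), with all 3 controls below their array medians. Socs7, a relative of Socs3, fell by 1.13 ± 0.18 and 1.26 ± 0.18 (adjusted p = 0.00868 and 0.00567), and Stat5b fell by 1.22 ± 0.31 and 1.27 ± 0.31 (adjusted p = 0.039 and 0.035). The 2 calls of Stat5b were each lost without any 1 of 8 arrays, again with control array 3 as the exception, at adjusted p up to 0.116, and with the replicate number as a block (adjusted p = 0.0661 and 0.0609). The call of Jak2 in urushiol skin was lost without control array 2 (adjusted p = 0.0512), urushiol array 1 (0.052) or urushiol array 3 (0.0538).

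Of 31 genes known to respond to STAT3 or to the acute phase, 11 rose in oxazolone skin and 9 in urushiol skin, and none fell by limma, with medians of 0.64 and 0.67. The called share was 35.5% and 29% of the list, beside 9.63% and 9.96% of all genes called higher. Most of these genes also answer to other signals. Il4ra, a receptor chain gene for interleukins 4 and 13, rose by 4.06 ± 0.29 and 3.23 ± 0.29 (adjusted p = 0.000698 and 0.00133). Timp1, an inhibitor of matrix proteases and a target of oncostatin M, read 9.79, 10.64 and 9.22 on oxazolone arrays, 9.08, 8.45 and 8.95 on urushiol arrays and 6.05, 6.10 and 6.19 on control arrays, and rose by 3.77 ± 0.34 and 2.71 ± 0.34 (adjusted p = 0.00143 and 0.00403). Hif1a, the hypoxia factor gene, rose by 2.42 ± 0.19 and 2.79 ± 0.19 (adjusted p = 0.000939 and 0.000564), and Saa3, an acute phase protein gene, by 2.41 ± 0.44 and 2.55 ± 0.44 (adjusted p = 0.014 and 0.0113). The Saa3 call in oxazolone skin was lost without control array 1 (adjusted p = 0.0534), control array 2 (0.0539) or oxazolone array 1 (0.0515).

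The count of response genes called in either direction depended on single arrays. It was 5, 6 and 10 in oxazolone skin without control arrays 1, 2 and 3, and 7 without oxazolone array 1 or 2. In urushiol skin it was 5 without control array 1 or urushiol array 1. In all, 20 of the 31 genes did not pass in oxazolone skin and 22 in urushiol skin, Fos among them.

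**Figure D4:**
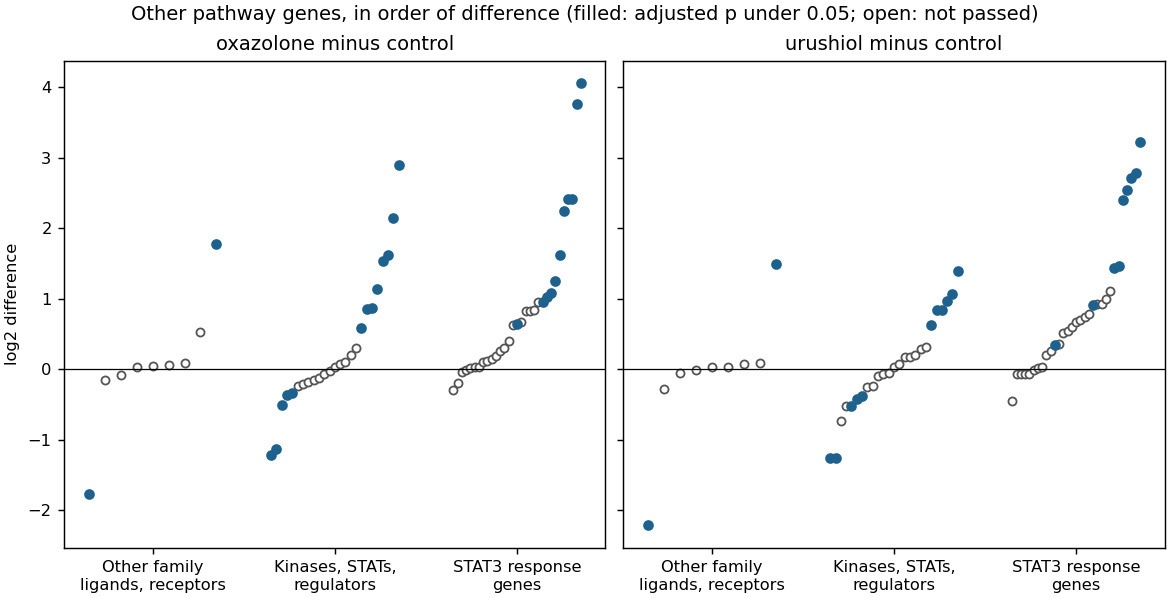
Log2 differences (vertical axis) of 9 other family genes, 25 kinases, STAT factors and regulators and 31 STAT3 response genes (horizontal axis, each list in order of difference) in oxazolone minus control and urushiol minus control, filled where the limma adjusted p was under 0.05. The first list has 1 gene up and 1 down in each panel, the second moves both ways, and the called genes of the third all lie above 0.

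The genes whose values ran most like Il6 over the 9 arrays were Olah, Ptpn2 and Tfec, with Pearson r of 0.989, 0.984 and 0.983. Ptpn2, which encodes a phosphatase that acts on JAK and STAT proteins, rose by 0.85 ± 0.11 in oxazolone skin and 0.63 ± 0.11 in urushiol skin (limma, adjusted p = 0.00486 and 0.0126). Those most like Socs3 were Socs1, Gcnt2 and Fam167a, with r of 0.975, 0.961 and 0.948. Socs1, the other classical feedback inhibitor of JAK kinases, read 6.13, 6.44 and 6.34 on oxazolone arrays, 5.96, 5.73 and 5.97 on urushiol arrays and 5.49, 5.97 and 5.69 on control arrays, so control array 2 was again the highest control. It rose by 0.59 ± 0.14 in oxazolone skin (adjusted p = 0.033), a call that was lost without any 1 of 5 arrays, at adjusted p up to 0.0947, and stood at 0.17 ± 0.14 in urushiol skin (adjusted p = 0.463). These correlations are descriptions over 9 arrays in 3 groups, so differences between the groups enter them.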

How the data were processed

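Total RNA of whole neck skin was hybridised to 9 Affymetrix mouse arrays, with groups and replicate numbers taken from the titles. The authors deposited log2 expression, 1 value per feature and array. Per the submitters' processing notes, Affymetrix Expression Console 1.4, RMA and the Transcriptome Analysis Console were used in roles they do not state, and no genome build is named. Values ran from 2.2 to 19.93. A 16-bit scanner cannot exceed 16 on the log2 scale and no source explains the excess, so a difference need not be the log2 ratio of RNA amounts. The 10 genes lay between 4.56 and 13.72.

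After 6732 array controls were dropped from 72688 features, the platform annotation gave a single symbol to 30604 of 65956 features, several to 2146 and none to 33206, and 827 symbols were updated by gene ID to RefSeq, assembly GRCm38.p6. The brightest feature of each symbol gave 30142 genes. Groups were compared in R 4.3.3 with limma 3.58.1 (1 fit of all 9 arrays with lmFit and eBayes, 2-sided, Benjamini-Hochberg over 30142 genes, threshold 0.05), checked on simulated data. Adjusted p values are from this fit, except where arrays left out or another setting is named beside them; those are from limma too.

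The members and gene lists were chosen with earlier results of these data known. Named are the 10 genes, per comparison with control up to 4 called genes of each list by size of difference and up to 3 between the allergens, and the 3 genes most like Il6 and Socs3; other names were chosen after their values were seen. Replicate numbers were checked for pairing through deviations from the group means. Oxazolone and urushiol arrays of 1 number had r of 0.124 to 0.201, and no label says that they are paired. Pairs of 1 number with controls ran from -0.232 to 0.337. Control array 3 and oxazolone array 2, of different numbers, had r of 0.285. The main fit treats all arrays as unpaired, also between the allergens, and the replicate number enters only the block alternatives. The alternatives tried were a filter on dim genes, other uses of features, quantile normalization, median centring, other variance models, array weights, 2 groups alone, replicate blocks and leaving out each array. The block in a fit of the 6 challenged arrays was added after the data were seen.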

Additional observations from a re-analysis of the deposited data

Results flagged for a closer look

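Between the allergens, 1 gene of the pathway lists passed the test of the difference itself. Stat4 stood at -0.77 ± 0.07 in urushiol against oxazolone skin (limma, adjusted p = 0.0486), and read 6.14, 6.14 and 6.19 on urushiol arrays and 6.92, 7.05 and 6.82 on oxazolone arrays. The call is marginal: it was made under 7 of 21 alternatives, and in 2 of the 9 fits that left out 1 array. The adjusted p of Stat4 ran from 0.0122 to 0.347 over the alternatives, and with the replicate number as a block in the oxazolone and urushiol arrays alone it was 0.347. Stat2 had a larger difference, at -3.42 ± 0.48, and did not pass (limma, adjusted p = 0.11). It passed with array weights (adjusted p = 0.0456) and without oxazolone array 2 (0.0461) or 3 (0.0122).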

How the results depend on the processing

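Of the calls against control, those of Osm and Il6ra in both challenged groups and of Il6 and Osmr in oxazolone skin held under all 20 alternatives each. No member passed between the allergens under any alternative. Of the values of single genes, 1371 kept direction and side of the threshold, 72 lost and 10 gained a call, and 8 changed sign, none of them called. Signs changed for Lif in urushiol against control skin under quantile normalization (-0.020), and when single arrays were left out for Il11 in oxazolone against control skin (-0.03 to 0.22) and, in urushiol against oxazolone skin, for Il11 (-0.22 to 0.027), Il6st (-0.21 to 0.04), Stat5b (-0.12 to 0.052) and Saa3 (-0.22 to 0.55). Without oxazolone array 3, Saa3 was at -0.21 and Stat5b at 0.033. The cause was not tested.

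Members lower in urushiol skin numbered 1 in place of 2 with all features tested, a variance trend, no moderation, 2 groups alone or the replicate block. Members lower in oxazolone skin numbered 2 in place of 1 under quantile normalization, and members higher 3 in place of 5 with 2 groups alone, which has fewer arrays. STAT3 response genes called in either direction in oxazolone skin numbered 7 in place of 11 without moderation. Kinase and regulator genes called between the allergens numbered 0 in place of 1 under median centring, a trend, robust moderation, no moderation, 2 groups alone and both replicate blocks, and 2 with array weights. With the replicate block in the fit of all arrays, 5083, 5119 and 0 of all genes were called in oxazolone against control, urushiol against control and urushiol against oxazolone.

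With 1 array left out, members higher numbered 3 to 5 in oxazolone skin and 1 to 3 in urushiol skin, and members lower 1 to 2 and 1 to 3. STAT3 response genes called in either direction numbered 5 to 10 and 5 to 9, and kinase and regulator genes called between the allergens 0 to 2. All genes called in oxazolone and in urushiol against control skin numbered 2107 to 8019 and 2189 to 7655, against 4989 and 4942 with all arrays; the lowest were without control array 1 and without urushiol array 1, the highest without control array 3. Quantile normalization took the share of calls that were higher to 42.6% and 46.1%, against 58.2% and 60.8%. Groups of 3 arrays limit every interval, and Il11 and control values of Il6, Stat4 and, on 2 arrays, Osm were below the array median.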
